A study of Mus musculus with 23 samples.

Results

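The VEGF and angiopoietin signalling genes of the mouse lung were examined: the 4 ligands Vegfa, Vegfc, Angpt1 and Angpt2 and the 6 receptors and co-receptors Kdr, Flt1, Flt4, Tek, Tie1 and Nrp1. They were chosen by name and matched by gene symbol, which found all 10 among the 35322 genes listed. RNA-Seq libraries of lung came from female Balb/c offspring aged 13 weeks, in 4 groups. Sham offspring (n = 7) were born to dams given saline intranasally, and PM offspring (n = 7) to dams given fine particulate matter (PM2.5). Sham-OVA (n = 5) and PM-OVA (n = 4) offspring of the same kinds of dams were in addition sensitised to ovalbumin (OVA), a chicken egg protein, by intraperitoneal injection with aluminium hydroxide and then challenged with it as an aerosol to induce allergic airway disease, whereas Sham and PM offspring inhaled nebulised saline. The dams were treated from before mating until their pups were weaned, and the pups themselves were not given PM2.5. All animals had undergone lung function testing. The sample labels write Lung (RML) for the tissue and PBS for the control solution, whereas the methods of the study speak of the right lower lobe and saline.

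VEGF-A is secreted mainly by epithelial cells in the lung and acts on endothelial cells through the receptor tyrosine kinase VEGFR2 (Kdr), while VEGFR1 (Flt1) binds VEGF-A tightly with weak kinase activity and limits how much of it reaches VEGFR2. VEGF-C acts mainly through VEGFR3 (Flt4), which is found on lymphatic endothelium though not only there, and neuropilin-1 (Nrp1) is a co-receptor for VEGF-A. Angiopoietin-1 (Angpt1), made by cells around the vessel, activates the receptor TIE2 (Tek) and keeps the endothelial barrier quiescent, whereas angiopoietin-2 (Angpt2), stored in endothelial cells, opposes it in many settings, and TIE1 (Tie1) modulates TIE2.

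In the mm10 build, with gene bounds from GENCODE, Vegfa lies at chr17:46016993-46032369 on the minus strand, Vegfc at chr8:54077606-54187096 on the plus strand, Angpt1 at chr15:42424723-42676977 on the minus strand and Angpt2 at chr8:18690263-18741562 on the minus strand. Among the receptors, Kdr lies at chr5:75932827-75978458 (minus), Flt1 at chr5:147561604-147726011 (minus), Flt4 at chr11:49609263-49652739 (plus), Tek at chr4:94739289-94874976 (plus), Tie1 at chr4:118471191-118490061 (minus) and Nrp1 at chr8:128358604-128503363 (plus). All are protein-coding. The whole of Angpt2 lies inside Mcph1, on its opposite strand, and Angpt1 overlaps the antisense gene Gm17473. How the counting treated strand is not given in the sources used here, so reads in these overlaps cannot be told apart and the Angpt2 values are uncertain. Mcph1 itself averaged 6.46 RPM over the 23 libraries (highest 10.5) and Gm17473 reached at most 2.98 RPM, where RPM is the reads of a gene per 1000000 reads of its library.

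Promoter sequences from RefSeq (GRCm38.p6) matched 8 of the 10 genes, and those of Vegfa, Flt1 and Tek are shown because they are the upstream regions of a ligand and of a receptor of each family whose RNA was lower after OVA. Each run is the 250 bases before the transcription start, read 5′ to 3′ on the strand of the gene, and capitals mark GGAA, the core recognised by ETS factors, or its reverse complement TTCC. The windows are chr17:46032378-46032627 (minus) for Vegfa, chr5:147726012-147726261 (minus) for Flt1 and chr4:94739039-94739288 (plus) for Tek.
Vegfa: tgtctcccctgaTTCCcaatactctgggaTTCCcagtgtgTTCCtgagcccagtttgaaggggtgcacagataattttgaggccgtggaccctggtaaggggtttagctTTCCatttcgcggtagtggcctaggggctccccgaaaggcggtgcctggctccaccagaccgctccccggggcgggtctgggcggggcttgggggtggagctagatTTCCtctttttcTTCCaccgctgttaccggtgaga
Flt1: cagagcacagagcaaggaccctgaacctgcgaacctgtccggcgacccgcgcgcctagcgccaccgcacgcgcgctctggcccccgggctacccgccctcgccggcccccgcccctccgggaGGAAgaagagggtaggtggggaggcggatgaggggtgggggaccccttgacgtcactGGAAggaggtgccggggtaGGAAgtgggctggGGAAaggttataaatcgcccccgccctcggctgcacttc
Tek: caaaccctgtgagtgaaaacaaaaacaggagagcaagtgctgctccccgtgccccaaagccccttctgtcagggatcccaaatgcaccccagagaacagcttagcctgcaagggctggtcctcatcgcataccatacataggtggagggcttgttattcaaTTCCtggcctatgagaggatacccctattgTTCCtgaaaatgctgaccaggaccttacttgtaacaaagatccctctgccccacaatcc
The Vegfa window holds 6 matches, all in the reverse orientation, the Flt1 window 4, all forward, and the Tek window 2, both reverse. Such a match is common, being present in 93.4% of 32851 promoter windows of this length, with a median of 3 matches. The letters ACGTG, the core of the hypoxia response element, were searched on both strands, have no overlap with GGAA, and are in none of these 3 windows. A second RefSeq entry of Vegfa, whose 250 bases before the start are chr17:46025164-46025413 (minus) and lie inside the gene as GENCODE bounds it, holds them once in the reverse orientation, beside 2 matches to GGAA. They are in 16.6% of all windows.

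Between 13089691 and 17393579 reads fell on genes in each of the 14 libraries without OVA, against 2298645 to 12185451 in Sham-OVA and 4324326 to 12355561 in PM-OVA. In PM-OVA, replicates 3 and 4 held 5922469 and 4324326, against 12355561 and 11073754 in replicates 1 and 2. Replicates 3 and 4 were also the lowest PM-OVA libraries for Vegfa, Vegfc, Angpt1, Kdr, Tek and Nrp1. What part depth has in this was not tested. A single read equalled 0.311 RPM in the shallowest library, Sham-OVA replicate 3, and 0.0502 to 0.0688 RPM without OVA. Reads outside genes were 7.60 to 17.0% of a library in Sham, 8.70 to 11.8% in PM, 14.3 to 28.6% in Sham-OVA and 14.4 to 21.5% in PM-OVA. Sftpc, the surfactant protein of alveolar type 2 cells, was at least 6490 RPM in all groups, and Jchain, a plasma cell gene, was 3788 to 9793 RPM with OVA and 14.2 to 145 RPM without. Some libraries went against their labels or stood apart. Sham replicate 1, labelled female, held 54.0 RPM of the Y-linked gene Eif2s3y and 0.289 RPM of Xist, whereas the other 22 libraries held no Eif2s3y. PM replicate 1 held 178 RPM of Clca1, a goblet cell gene of allergic airways that was at most 6.16 RPM in Sham, and Sham replicate 6 held the highest Jchain without OVA (145 RPM). PM replicate 5 and Sham-OVA replicate 3 stood apart in the genes described here, as given beside each result.

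Levels of different genes were compared per kilobase of the longest annotated transcript. In Sham, Vegfa was by far the most abundant of the 10 genes, at 402 ± 65.8 RPM per kilobase (SD, n = 7). It was followed by Tek at 94.8 ± 23.3, Kdr at 81.6 ± 22.0, Tie1 at 61.7 ± 11.01, Nrp1 at 52.5 ± 15.7, Flt1 at 51.3 ± 10.6 and Angpt1 at 34.2 ± 7.13, then by Flt4 at 13.9 ± 3.06, Angpt2 at 5.56 ± 1.27 and Vegfc at 3.74 ± 0.476. The libraries of neighbours in this order did not overlap between Vegfa and Tek, between Angpt1 and Flt4 and between Flt4 and Angpt2, and every other pair of neighbours overlapped. PM had nearly the same order, with Nrp1 and Tie1 exchanged and overlapping. In Sham-OVA the order was Vegfa at 68.0 ± 19.0, Tie1 at 39.9 ± 6.88, Kdr at 29.3 ± 6.88, Tek at 22.7 ± 9.34, Flt1 at 22.1 ± 3.83, Nrp1 at 11.7 ± 2.89, Flt4 at 10.4 ± 1.57, Angpt1 at 7.12 ± 3.41, Angpt2 at 5.53 ± 0.788 and Vegfc at 1.69 ± 0.877 RPM per kilobase (SD, n = 5). Vegfa and Tie1 overlapped there, and neighbours were separate at Flt1 and Nrp1 and at Angpt2 and Vegfc. In PM-OVA Vegfa was 82.6 ± 40.3 (SD, n = 4), followed with overlap by Tie1 at 41.9 ± 4.27. Part of the order rests on the transcript length used: over all annotated exons, Angpt1 (28.0 in Sham) came before Flt1 (26.2) and Nrp1 (19.6).

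The response to OVA was examined first in offspring of saline dams and then in offspring of PM2.5 dams. A gene entered the limma test on log2(RPM + 0.5) when 4 or more of the 23 libraries reached 0.5 RPM, which kept 16795 genes with all 10 signalling genes among them, and it was called at a Benjamini-Hochberg adjusted p under 0.05. In Sham-OVA against Sham, 9 of the 10 signalling genes fell and none rose, but in the same comparison 68.1% of all genes tested were called, 47.5% as lower and 20.6% as higher. In PM-OVA against PM, 8 fell and none rose, with 65.3% of all genes called, 45.2% lower and 20.1% higher. The surplus of lower calls over all genes depended on the scaling. In the Sham comparison 7978 genes were called lower and 3453 higher, against 5812 and 5484 after quantile normalisation, 6407 and 4903 with median-of-ratios scaling, 5669 and 5584 in edgeR, 6391 and 5286 in DESeq2 and 5235 and 5221 with a trend of the change with transcript length and GC content removed. In the PM comparison 7589 were lower and 3379 higher, against 5445 and 5288, 6003 and 4862, 5095 and 5120, 5376 and 5321 and 4897 and 4851 in the same order of settings. The median log2 change of all genes was -0.48 and -0.43 in the Sham and PM comparisons, and that of the signalling genes was -1.37 and -1.28, so most of them lay below the shift of the whole table. The 2 genes above that shift in both comparisons were Angpt2 and Flt4. These are values of bulk tissue, in which fewer cells of a type and less RNA per cell cannot be told apart.

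Vegfa, the main growth factor of blood vessels, had the lowest log2 change of the ligands in Sham offspring. It ranged from 1207 to 1874 RPM in Sham (median 1298) and was 268, 212, 131, 265 and 298 RPM in Sham-OVA replicates 1 to 5. All 5 OVA libraries lay below every Sham library, and the mean fell from 1387 ± 227 to 235 ± 65.7 RPM, 5.91-fold lower. The log2 change was -2.60 (SE 0.20, 95% interval -3.02 to -2.18, limma adjusted p = 9.92e-08). In PM it ranged from 1022 to 1396 RPM (median 1290.3) and in PM-OVA replicates 1 to 4 it was 454, 344, 183 and 159 RPM, again without overlap. The fall was 4.33-fold, with a log2 change of -2.24 (SE 0.25, 95% interval -2.79 to -1.69, limma adjusted p = 3.97e-05).

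Angpt1, the TIE2 agonist, fell to a similar extent. In Sham it ranged from 113 to 187 RPM (median 144), and in Sham-OVA it was 37.7, 33.0, 4.66, 39.1 and 37.1 RPM. The groups did not overlap, replicate 3 being far below the other OVA libraries on only 15 reads, and the fall was 4.80-fold (log2 change -2.52, SE 0.42, 95% interval -3.40 to -1.63, limma adjusted p = 9.63e-05). Without that library the log2 change was -1.95 and remained called. In PM Angpt1 ranged from 126 to 220.0 RPM (median 143), and in PM-OVA it was 73.6, 50.1, 15.1 and 16.0 RPM. All 4 lay below every PM library, 3.93-fold lower in the mean (log2 change -2.26, SE 0.37, limma adjusted p = 0.000323).

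Angpt2, the context-dependent antagonist, was not called in either comparison. It ranged from 14.5 to 26.2 RPM in Sham (median 19.1) and was 16.1, 19.3, 23.3, 18.3 and 21.5 RPM in Sham-OVA, inside the range of Sham in all 5 libraries. The log2 change was 0.01 (95% interval -0.37 to 0.40, limma adjusted p = 0.953), and its sign was not stable, with -0.05 without Sham-OVA replicate 3 and 0.62 after the length and GC trend over all genes was removed, where it was called higher (limma adjusted p = 0.0296). In PM, Angpt2 ranged from 13.6 to 49.2 RPM (median 18.9), with replicates 5 and 1 (35.6) the highest, and in PM-OVA it was 16.6, 16.2, 17.9 and 23.2 RPM. The log2 change there was -0.29 (95% interval -0.96 to 0.38, limma adjusted p = 0.429), and it was 0.07 with median-of-ratios scaling.

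Vegfc, the lymphatic growth factor, was the least abundant ligand. It ranged from 7.12 to 10.6 RPM in Sham (median 9.51) and was 6.18, 5.12, 0.621, 5.02 and 3.72 RPM in Sham-OVA, without overlap. The value of replicate 3 rests on 2 reads. The mean was 2.22-fold lower (log2 change -1.28, SE 0.36, 95% interval -2.04 to -0.52, limma adjusted p = 0.00546), and without replicate 3 the log2 change was -0.82 and still called. In PM it ranged from 8.42 to 12.8 RPM (median 10.5), and in PM-OVA it was 8.53, 5.49, 2.39 and 2.00 RPM on 127, 71, 18 and 11 reads. Replicate 1 of PM-OVA lay within the PM range and the other 3 below it, and the log2 change was -1.29 (SE 0.31, limma adjusted p = 0.00301).

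**Figure D1:**
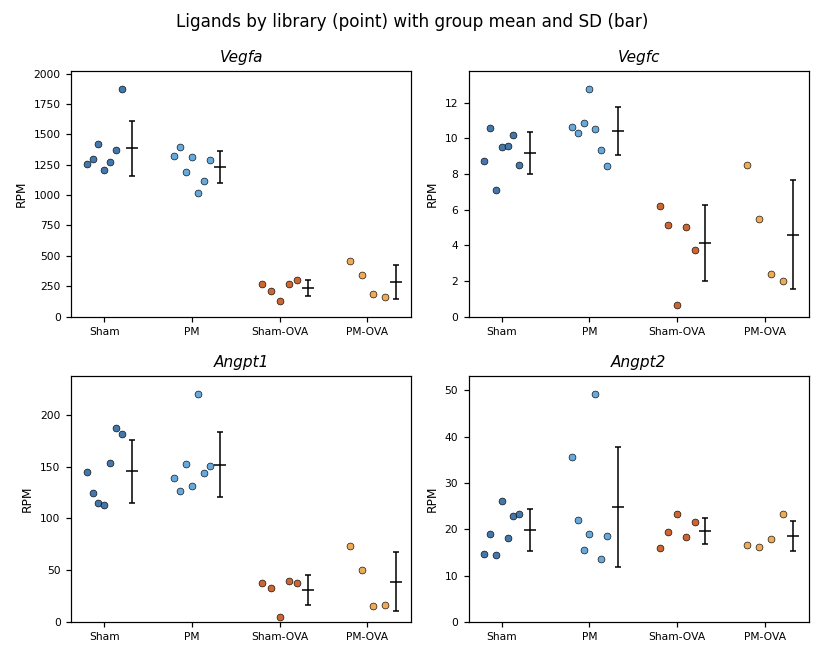
RPM of the 4 ligands in each library (points), by group on the horizontal axis, with the mean and SD (bars) of 7 Sham, 7 PM, 5 Sham-OVA and 4 PM-OVA libraries. The OVA libraries of Vegfa and Angpt1 all lie below those without OVA, while the 5 Sham-OVA libraries of Angpt2 (16.1 to 23.3 RPM) lie within the Sham range (14.5 to 26.2 RPM).

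Of the receptors, Tek and Nrp1 had the lowest log2 changes. Tek, the angiopoietin receptor, ranged from 262 to 518 RPM in Sham (median 500.4) and was 128, 88.8, 38.5, 124 and 149.8 RPM in Sham-OVA, without overlap, 4.17-fold lower (log2 change -2.15, SE 0.30, 95% interval -2.79 to -1.51, limma adjusted p = 2.14e-05). Its PM libraries ranged from 121 to 578 RPM (median 531), and in PM-OVA it was 159, 169, 70.4 and 61.0 RPM. The groups overlapped there through PM replicate 5 (121 RPM), and the log2 change was -2.03 (SE 0.43, limma adjusted p = 0.00134). The co-receptor Nrp1 ranged from 84.5 to 253 RPM in Sham (median 204) and was 50.5, 47.1, 24.2, 47.0 and 44.9 RPM in Sham-OVA. No library overlapped (log2 change -2.12, SE 0.26, 95% interval -2.67 to -1.57, limma adjusted p = 6.45e-06). The PM range was 125 to 272 RPM (median 255), in PM-OVA it was 59.2, 53.8, 35.2 and 25.6 RPM, again all lower, and the 5.42-fold fall was the largest of the 10 genes in PM offspring (log2 change -2.46, SE 0.26, limma adjusted p = 2.18e-05).

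Kdr and Flt1, the receptor kinases that bind VEGF-A, fell with smaller log2 changes. Kdr ranged from 320.1 to 696 RPM in Sham (median 509) and was 216, 140.1, 121, 188 and 202 RPM in Sham-OVA, without overlap, 2.79-fold lower (log2 change -1.47, SE 0.21, limma adjusted p = 2.73e-05). PM libraries held 114 to 716 RPM (median 576), and in PM-OVA it was 318, 210.1, 135 and 162 RPM, all above the 114 RPM of PM replicate 5 (log2 change -1.27, SE 0.44, limma adjusted p = 0.0214). Its PM call was lost in limma without PM-OVA replicate 3 (adjusted p = 0.0741) or 4 (adjusted p = 0.0570), with no filter on low values (adjusted p = 0.0532) and with median-of-ratios scaling (-0.91, adjusted p = 0.0671). Flt1, the VEGF-A trap, ranged from 266 to 429.9 RPM in Sham (median 379.9) and was 137, 130.3, 197, 148 and 149 RPM in Sham-OVA. The groups were separate, 2.33-fold apart (log2 change -1.20, SE 0.17, limma adjusted p = 2.18e-05). The PM libraries of Flt1 held 143 to 433 RPM (median 399), and in PM-OVA it was 183, 168, 163 and 179 RPM, all above the lowest PM library, replicate 5 (log2 change -1.002, SE 0.26, limma adjusted p = 0.00500), a call that was lost with median-of-ratios scaling (-0.64, limma adjusted p = 0.0524).

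The smallest differences among the receptors were those of Tie1, the orphan partner of TIE2, and of Flt4, the VEGF-C receptor. Tie1 ranged from 182 to 309 RPM in Sham (median 268) and was 177, 178, 119, 196 and 175 RPM in Sham-OVA, where replicate 4 overlapped Sham and the other 4 lay below it (log2 change -0.62, SE 0.17, limma adjusted p = 0.00397). In PM it ranged from 149 to 322 RPM (median 295), and in PM-OVA it was 178, 203, 168 and 162 RPM, within that range because of PM replicate 5 (log2 change -0.58, SE 0.19, limma adjusted p = 0.0186). The Sham call of Tie1 was lost with median-of-ratios scaling (-0.26, limma adjusted p = 0.113), in DESeq2 (-0.27, adjusted p = 0.0790) and in edgeR (-0.19, adjusted p = 0.260). Its PM call was lost after quantile normalisation (-0.38, limma adjusted p = 0.0838), with median-of-ratios scaling (-0.21, limma adjusted p = 0.342), in DESeq2 (-0.21, adjusted p = 0.357) and in edgeR (-0.22, adjusted p = 0.317). Flt4 ranged from 65.4 to 123 RPM in Sham (median 83.2) and was 52.3, 60.5, 77.4, 71.5 and 62.3 RPM in Sham-OVA, with overlap. Its log2 change of -0.40 (95% interval -0.75 to -0.05, limma adjusted p = 0.0394) lay near the median of all genes (-0.48) and its direction turned under 3 settings, to 0.071 in edgeR, to 0.00476 in DESeq2 and to 0.24 after the length and GC trend was removed. It was -0.09 after quantile normalisation and -0.03 with median-of-ratios scaling, not called in either. In PM, Flt4 ranged from 43.3 to 103 RPM (median 87.4), in PM-OVA it was 67.5, 67.1, 78.5 and 86.2 RPM, and the log2 change of -0.10 (95% interval -0.54 to 0.34, limma adjusted p = 0.681) was not called. The sign of that change turned under 5 of 25 alternatives, with values up to 0.48.

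**Figure D2:**
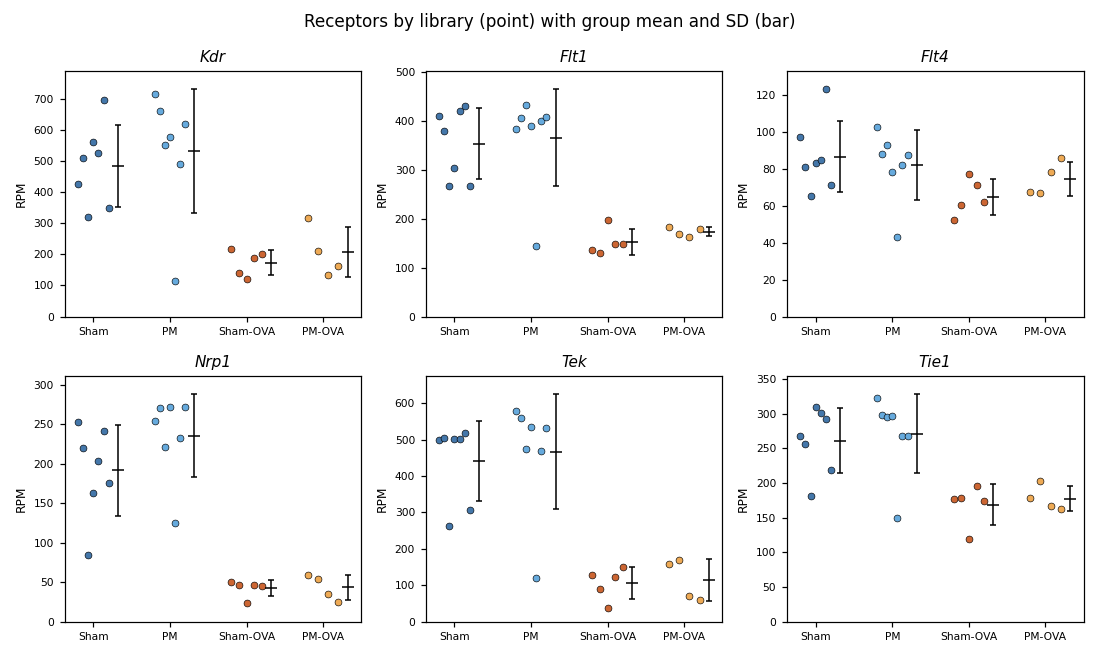
RPM of the 6 receptors and co-receptors in each library (points), by group on the horizontal axis, with the mean and SD (bars) of 7 Sham, 7 PM, 5 Sham-OVA and 4 PM-OVA libraries. PM replicate 5 is the lowest PM library in all 6 panels, and the OVA libraries of Nrp1 all lie below those without OVA.

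Groups without any overlap were found for 7 signalling genes in the Sham comparison (Vegfa, Vegfc, Angpt1, Kdr, Flt1, Tek and Nrp1), all lower, against 35% of all genes tested that were lower without overlap. At the threshold of the study, an adjusted p under 0.000001 and a log2 change above 1 in size, only Vegfa was called there by limma, with 4.51% of all genes, and none of the 10 in the PM comparison, with 0.286% of all genes. The study applied that threshold in DESeq2, and DESeq2 on the recovered reads, an alternative chosen after seeing the data, called Vegfa, Angpt1, Kdr, Tek and Nrp1 at it in the Sham comparison (28.9% of 16681 genes) and Vegfa, Angpt1 and Nrp1 in the PM comparison (17% of 16565 genes), all lower. Without overlap there were 3 genes in the PM comparison (Vegfa, Angpt1 and Nrp1), against 28.6% of all genes lower without overlap. PM replicate 5 set several of these overlaps. In that library Kdr, Flt1, Flt4, Tek, Tie1 and Nrp1 were the lowest of PM and Angpt1 and Angpt2 the highest, and without it the PM means were 602 ± 80.5 RPM for Kdr, 403 ± 17.6 for Flt1, 524 ± 44.0 for Tek and 254 ± 22.1 for Nrp1 (SD, n = 6). The log2 changes after OVA were then -1.61 for Kdr, -1.21 for Flt1, -2.33 for Tek, -0.71 for Tie1 and -2.60 for Nrp1, all called, and -0.25 for Flt4, not called (limma adjusted p = 0.103). Without Sham replicates 1 and 6 and PM replicate 1, 8 of the 10 genes were called lower in each comparison. Of all 16795 genes tested, 7443 were then called lower in the Sham comparison and 7194 in the PM comparison.

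The size of the change moved with transcript length and GC content over the whole table. In Sham-OVA against Sham the median log2 change was 0.10 over the 4127 genes with the shortest transcripts, up to 2025 bases, and -0.99 over the 4126 with the longest, and it was -0.85 and -0.04 over groups of genes of the same size with the lowest and the highest GC content. In PM-OVA against PM the same medians were 0.13 and -0.96 for length and -0.83 and 0.04 for GC. Kdr (5924 bases), Flt1 (6895), Flt4 (6255) and Tek (4654) belong to the longest group, and Angpt1 (39.3% GC), Nrp1 (41.9%) and Vegfc (44.9%) to the lowest GC group. With that trend removed the median of all genes was -0.02 and -0.01, and Vegfa (-2.15 and -1.82 in the Sham and PM comparisons), Angpt1 (-1.54 and -1.27), Nrp1 (-1.34 and -1.67), Tek (-1.33 and -1.21) and Vegfc (-0.87 and -0.87) were still called lower in both by limma. Kdr was then -0.57 and called in the Sham comparison and -0.39 (adjusted p = 0.403) in the PM one. Flt1 was -0.27 (adjusted p = 0.304) and -0.09 (adjusted p = 0.791), and Tie1 -0.27 (adjusted p = 0.0852) and -0.29 (adjusted p = 0.182), so neither passed the limma test. What part transcript length and GC content have in these values was not tested.

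**Figure D3:**
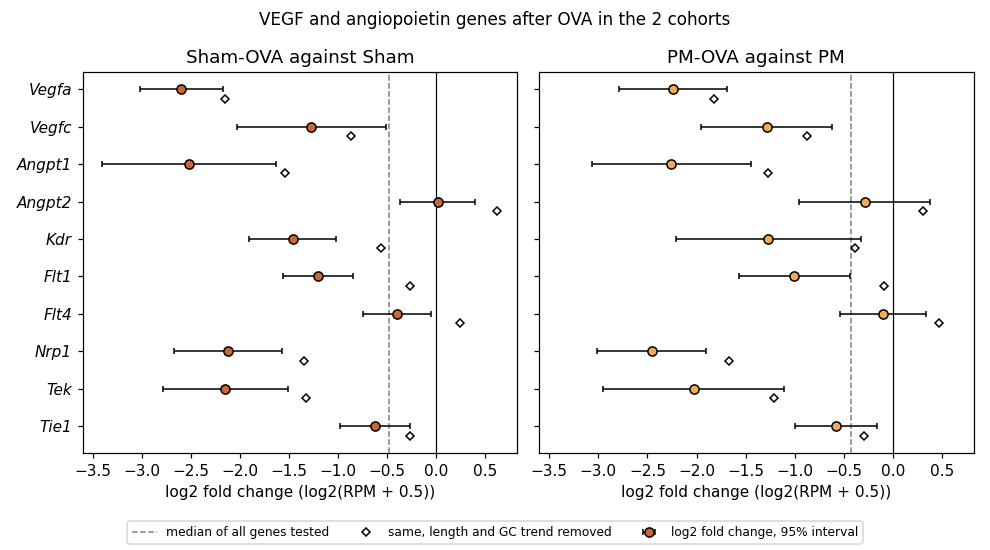
Log2 change after OVA (horizontal axis) of the 10 genes in offspring of saline dams and of PM2.5 dams, with circles for the limma estimate, bars for its 95% interval, a dashed line for the median of all genes (-0.48 and -0.43) and diamonds for the value with the length and GC trend removed, whose own median is -0.02 and -0.01. Vegfa, Angpt1, Tek and Nrp1 lie lowest in both panels, and the diamonds of Flt1 and Tie1 lie between -0.29 and -0.09.

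Maternal PM2.5 exposure was compared next, without and with OVA, in the same libraries that served for the OVA comparisons, so the comparisons are not independent. In PM against Sham, limma called none of the 10 genes and 0% of all genes tested, with groups that overlapped for all 10 (0.00595% of all genes were lower without overlap and 0% higher), 731 genes (4.35%) and none of the 10 at an unadjusted p under 0.05, and edgeR and DESeq2 also called none of either. The log2 differences ran from -0.16 for Vegfa (95% interval -0.42 to 0.10) to 0.33 for Nrp1 (-0.15 to 0.80), and the smallest adjusted p was 0.898. Kdr differed by 0.01, with an interval of -0.69 to 0.71, and PM replicate 5 was its lowest library. Without that library Kdr was 0.35, Tek 0.29, Flt1 0.21, Tie1 0.18 and Nrp1 0.47, each at an adjusted p of 0.741 or more in limma. In PM-OVA against Sham-OVA, limma again called none of the 10 and 0% of all genes, with overlap for all 10 (0.298% of all genes were lower and 0.310% higher without overlap), 313 genes (1.86%) at an unadjusted p under 0.05 and none of the 10, while edgeR called 0 genes and DESeq2 1, which is none of the 10. Values ran from -0.09 for Angpt2 (-0.54 to 0.36) to 0.32 for Angpt1 (-1.26 to 1.90), and Vegfa was 0.20 (-0.59 to 0.99). These intervals leave differences of more than 2-fold within reach for Angpt1, Vegfc (-1.18 to 1.51) and Tek (-0.90 to 1.13).

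The response to OVA was then tested for a difference between offspring of PM2.5 and of saline dams, as the interaction in 1 fit of all 4 groups. No signalling gene and 0% of all genes were called by limma, 854 genes (5.08%) and none of the 10 had an unadjusted p under 0.05, and edgeR called 0 genes and DESeq2 2, none of the 10. The interaction was positive where the fall was smaller in PM offspring. It ranged from -0.34 for Nrp1 (95% interval -1.13 to 0.45) to 0.36 for Vegfa (-0.31 to 1.03), with 0.26 for Angpt1 (-0.99 to 1.51), 0.12 for Tek (-0.998 to 1.24) and 0.20 for both Kdr (-0.82 to 1.21) and Flt1 (-0.44 to 0.85). With libraries weighted by their quality (limma array weights), 2 of the 10 were called, Angpt1 at -0.94 (adjusted p = 0.0218) and Vegfc at -0.85 (adjusted p = 0.0341), among 4616 genes called in all, and the sign of Angpt1 turned.

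The balance of the angiopoietins was taken within each library as the log2 ratio of Angpt2 to Angpt1, each with 0.5 RPM added, which depends on the scaling of the library only through the 0.5 RPM added. Angpt2 was 10.1 to 23.2% of Angpt1 in RPM in Sham, and 42.6, 58.5, 500.0, 46.8 and 57.9% in Sham-OVA replicates 1 to 5. All OVA libraries lay above all Sham libraries. The mean log2 ratio was -2.85 ± 0.38 in Sham (SD, n = 7) and -0.32 ± 1.43 in Sham-OVA (SD, n = 5), a difference of 2.53 (two-sided exact permutation p = 0.00253, the smallest possible with these groups, adjusted over 4 comparisons 0.0101). This difference joins the log2 changes of Angpt1 (-2.52) and Angpt2 (0.01) in the same libraries, so it is not independent of the call of Angpt1. Without Sham-OVA replicate 3, in which Angpt1 rests on 15 reads, the difference was 1.90 and remained called. In PM the share was 9.50 to 25.5%, and in PM-OVA replicates 1 to 4 it was 22.6, 32.4, 118 and 145%. Replicates 3 and 4 had the fewest reads of PM-OVA, and Angpt1 rests on 114 and 88 reads there. The PM and PM-OVA groups overlapped, PM-OVA replicate 1 lying below the highest PM library, which was replicate 1. The log2 ratio was -2.71 ± 0.54 in PM (SD, n = 7) and -0.74 ± 1.31 in PM-OVA (SD, n = 4), a difference of 1.97 (exact permutation p = 0.0121, adjusted 0.0242), and it was no longer called without PM-OVA replicate 2, 3 or 4 (differences 2.26, 1.65 and 1.55, each at an adjusted exact p of 0.0667). With so few libraries the exact p moves in coarse steps, and without replicate 2 the call was lost although the difference was larger. The maternal comparisons gave 0.14 without OVA (exact permutation p = 0.569) and -0.42 with OVA (exact permutation p = 0.698), both with an adjusted p of 0.698.

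**Figure D4:**
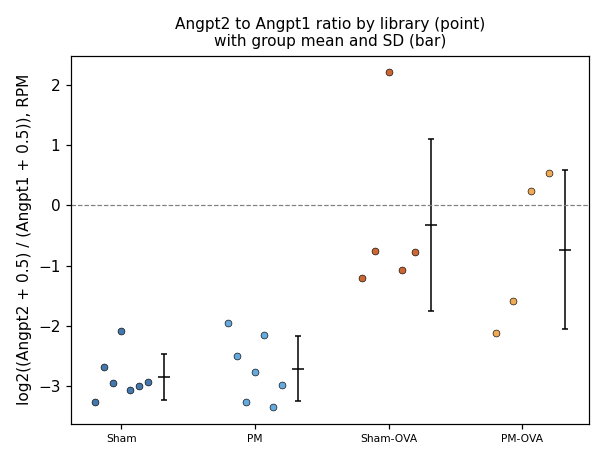
Log2 ratio of Angpt2 to Angpt1 (RPM with 0.5 added to each) in each library (points), with the group mean and SD (bars). All 5 Sham-OVA libraries lie above all 7 Sham libraries, the highest being replicate 3, and PM-OVA replicates 3 and 4 are the only other libraries above 0.

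Because most of these receptors are endothelial, their levels were set beside 10 general endothelial markers (Pecam1, Cdh5, Cldn5, Emcn, Esam, Egfl7, Eng, Ramp2, Cd93 and Clec14a), none of which was at 0 in any library. After OVA, 4 of the 10 markers fell, 2 rose and 4 were not called in each comparison, with a median log2 change of -0.11 in Sham and -0.03 in PM offspring. With median-of-ratios scaling 4 fell and 4 rose in Sham and 4 fell and 3 rose in PM offspring, and these medians turned to 0.26 and 0.33. After quantile normalisation 4 fell and 3 rose in each, with medians of -0.06 and 0.05. With the length and GC trend removed 5 fell and 1 rose in Sham and 4 fell and 1 rose in PM offspring. The medians were then -0.10 and -0.09. Without other scaling the markers spanned -1.94 for Clec14a, a cell-surface C-type lectin, to 1.13 for Emcn, a sialomucin of capillary and venous endothelium, in the Sham comparison. Summed over the 10 markers, the level was 4378 to 7744 RPM in Sham, 3357 to 7716 in PM, 4346 to 5399 in Sham-OVA and 4280 to 6132 in PM-OVA. The lowest of all was PM replicate 5, the library with the lowest receptors of PM. The mean log2 level of the markers differed by -0.42 and -0.36 in the Sham and PM comparisons.

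Taken relative to that marker mean in the same library, 5 signalling genes stayed lower without overlap in Sham-OVA, namely Vegfa (-2.18), Angpt1 (-2.09), Tek (-1.73), Nrp1 (-1.70) and Kdr (-1.04), against 19% of all genes tested on the same scale, and 3 in PM-OVA, namely Nrp1 (-2.10), Angpt1 (-1.90) and Vegfa (-1.88), against 7.21% of all genes. On that scale 17.9% and 12.1% of all genes were higher without overlap, with none of the 10 among them. Tie1 differed by -0.20 and -0.21, Flt4 by 0.02 and 0.26 and Angpt2 by 0.44 and 0.07, with overlap. In the maternal comparisons all 10 overlapped. How far a loss or dilution of endothelial cells enters the levels of the receptors was not tested.

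**Figure D5:**
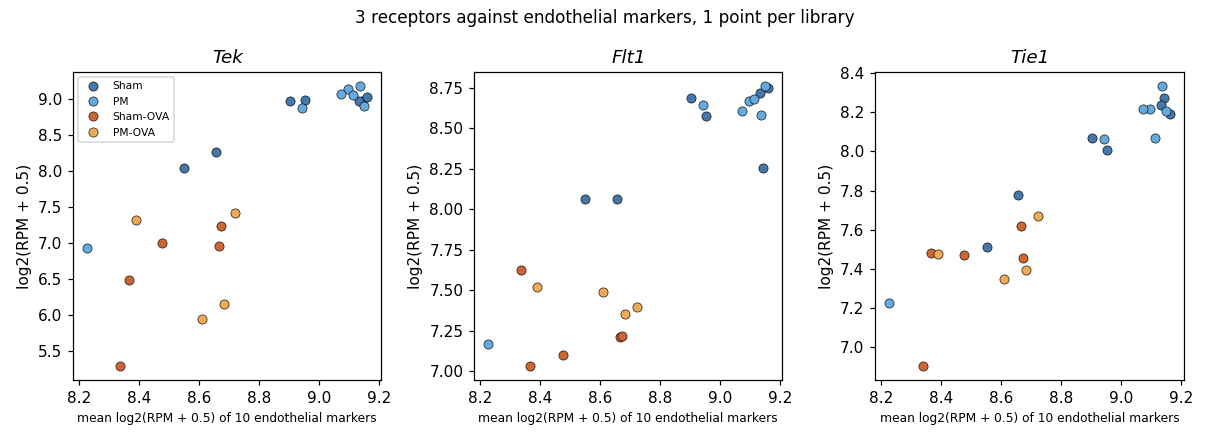
Log2(RPM + 0.5) of Tek, Flt1 and Tie1 (vertical axes) against the mean log2 level of 10 endothelial markers in the same library (horizontal axis), 1 point per library, coloured by group. PM replicate 5, at the lowest marker mean (8.23), is also the lowest PM library for all 3 genes, and the OVA libraries of Tek lie below every library without OVA except PM replicate 5.

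Other genes of the pathway were taken from lists compiled by role, and genes with the largest fall and the largest rise of a list in Sham-OVA against Sham were named. Among 6 other ligands and ligand-processing genes, 4 fell and 1 rose in each comparison. The riser was Pgf, placental growth factor, a ligand of VEGFR1, which went from 8.35 ± 3.09 RPM in Sham to 26.5 ± 6.09 in Sham-OVA and from 10.1 ± 4.72 in PM to 23.1 ± 6.76 in PM-OVA (log2 changes 1.64 and 1.21). Adamts3, a protease that processes VEGF-C, fell most, from 1.18 ± 0.350 RPM in Sham to no read in any Sham-OVA library, and no fold is given. Among 6 receptor partners, 3 fell and 2 rose in each comparison, led by Ptprb, the endothelial phosphatase VE-PTP that restrains TIE2, which dropped from 1049 ± 323 to 167 ± 52.6 RPM in Sham offspring (log2 changes -2.66 and -2.47). Plxnd1, the semaphorin receptor plexin D1, rose most (0.87 and 0.86).

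Downstream, 10 of 17 signal transduction genes fell and 2 rose in Sham offspring, and 13 fell and 3 rose in PM offspring, with medians of -0.82 and -0.87 that were -0.41 and -0.53 after quantile normalisation, -0.45 and -0.51 with median-of-ratios scaling and -0.14 and -0.25 with the length and GC trend removed. Dok2, an adaptor that binds activated TIE2, had the largest rise of this list in the Sham comparison (1.80, and 1.69 in PM). The supplement of the paper lists Dok2 among genes selectively expressed by immune cells. Which cells its reads came from was not tested. Among 7 regulators of the hypoxia response, which controls Vegfa transcription, 4 fell and 3 rose in each comparison. Egln1 and Egln3, oxygen-sensing prolyl hydroxylases that mark HIF for destruction, moved in opposite directions, Egln1 by -1.80 and -1.91 and Egln3 by 1.65 and 1.45. Of 10 endothelial transcription factors, 7 fell and 1 rose in Sham offspring and 6 fell and 1 rose in PM offspring, with Ets1 lowest (-2.03 and -2.33) and the flow-responsive factor Klf2 highest (1.40 and 1.502). Of 7 genes induced by the pathway, 3 fell in Sham and 4 in PM offspring and none rose, although 2 were called higher in Sham offspring after quantile normalisation or median-of-ratios scaling and 1 in PM offspring after quantile normalisation, with the tip-cell gene Esm1 falling most, from 66.4 ± 30.7 to 7.44 ± 5.16 RPM in Sham offspring (-3.26, and -2.66 in PM). After quantile or median-of-ratios scaling or removal of the length and GC trend, the named genes of these lists all kept their direction, and only Klf2 in the PM comparison with the trend removed was no longer called. The counts of the lists moved, however. Of the other ligands, 2 were called higher in each comparison after quantile or median-of-ratios scaling and 2 to 3 lower in PM offspring. Of the receptor partners, 2 to 3 were called lower and 3 to 4 higher in Sham offspring and 2 lower and 2 to 3 higher in PM offspring under the same 3 settings. Endothelial transcription factors were 5 to 7 lower and 2 to 3 higher in Sham offspring and 5 to 6 lower and 1 to 2 higher in PM offspring. With the trend removed the counts were 7 fallen and 3 risen signal transduction genes in each comparison and, of the hypoxia regulators, 2 fallen and 3 risen in Sham and 1 fallen and 3 risen in PM offspring. No gene of these lists was called in either maternal comparison or in the interaction.

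Markers of the other cells that make or receive these signals were summed in the same way, with no marker list tested as a whole. Of 6 lymphatic endothelial markers, 4 fell and 1 rose in each comparison, and their sum was 437 to 945 RPM in Sham, 345 to 761 in PM, 161 to 245 in Sham-OVA and 157 to 409 in PM-OVA. Lyve1, the hyaluronan receptor of lymphatic endothelium and of some macrophages, was lowest (-2.79 and -2.44), and Reln highest (2.11 and 1.85). Lyve1 was most of that sum without OVA, with a mean of 448 RPM of 678 in Sham, against 70.9 of 218 in Sham-OVA. Of 8 pericyte markers, 6 fell and 1 rose in each, with sums of 377 to 571, 529 to 662, 351 to 488 and 368 to 485 RPM in the same order of groups, from -1.93 for the potassium channel gene Kcnj8 to 1.36 for Cox4i2. Of 8 markers of alveolar type 1 cells, a source of VEGF-A, 5 fell in each and 2 and 1 rose, with sums of 4706 to 6666, 5714 to 6173, 4019 to 4728 and 3788 to 5170 RPM, from -2.83 for Clic5 to 1.13 for Igfbp2. Clic5 alone averaged 1301 RPM in Sham and 197 in Sham-OVA. Ager, a marker of this list that the naming rule did not pick, averaged 1608 RPM in Sham and 2291 in Sham-OVA. The paper's supplement lists Clic5 among genes selectively expressed by endothelial cells. Of 8 fibroblast markers, 4 fell and none rose in each, with Npnt lowest (-2.75 and -2.61) and sums of 5256 to 7454, 5628 to 10891, 1767 to 4613 and 2265 to 6391 RPM. Of 8 leukocyte markers, 2 fell and 3 rose in each, from -1.81 for Lyz2 to 7.27 for Jchain in the Sham comparison, and the sum, of which Jchain was most with OVA, was 408 to 748 RPM in Sham, 477 to 585 in PM, 3970 to 10219 in Sham-OVA and 4939 to 10144 in PM-OVA. These counts also depended on the scaling. After quantile normalisation, with median-of-ratios scaling and with the trend removed, 2, 2 and 3 fibroblast markers were called higher in Sham offspring and 0, 0 and 1 in PM offspring, with 3 to 4 lower. Lymphatic markers were then 4, 4 and 2 lower in Sham and 4, 4 and 3 lower in PM offspring, with 2 higher throughout. Pericyte markers were 6, 5 and 4 lower with 2, 2 and 1 higher in Sham and 6, 6 and 3 lower with 1, 1 and 0 higher in PM offspring. Alveolar type 1 markers were 5, 4 and 5 lower with 2, 3 and 2 higher in Sham and 4, 3 and 4 lower with 1, 3 and 0 higher in PM offspring. Leukocyte markers were 1, 2 and 2 lower with 4, 4 and 5 higher in Sham and 2, 2 and 2 lower with 3, 3 and 5 higher in PM offspring. The markers named by the rule kept their direction under the same 3 settings, and Cox4i2 and Igfbp2 lost their call in the PM comparison with the trend removed. The part of these cell types in the signalling genes was not tested.

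Some of the 10 genes also varied together within groups, and others did not. This is described here by Pearson correlations of deviations from the group mean over the 23 libraries. These values share depth and library quality and carry no test. Tek went with Tie1 (0.892), Kdr (0.890) and Nrp1 (0.864), and Flt1 with Flt4 (0.862). Vegfa went with Angpt1 (0.823) and Vegfc (0.785), and Angpt1 with Vegfc (0.914), whereas Angpt2 was at -0.0808 with Angpt1 and -0.540 with Flt1. Over the 21 libraries without PM replicate 5 and Sham-OVA replicate 3, the same pairs were at 0.700, 0.832 and 0.803 for Tek, 0.661 for Flt1 with Flt4, 0.876 and 0.724 for Vegfa, 0.823 for Angpt1 with Vegfc, and -0.175 and -0.122 for Angpt2, so that the relation of Angpt2 with Flt1 rests largely on those 2 libraries. Flt1 and Flt4 did not go with Angpt1 (-0.290 and -0.349) or with Vegfa (-0.0442 and -0.209) over the 23 libraries. Over the 21 libraries they were at 0.194 and -0.130 with Angpt1 and at -0.121 and -0.376 with Vegfa. Over all genes tested, those most like Vegfa were Dnal1 (0.950), BC017158 (0.945) and Thrb (0.944), and those most like Angpt1 were Mme (0.976), Chrdl1 (0.968) and Stk40 (0.968). Kdr was most like Pcdhac2 (0.941), Acvrl1 (0.939) and Pcdhac1 (0.933), which fell to 0.805, 0.838 and 0.828 over the same 21 libraries. Angpt2 had no close match, with Lpcat1 (0.759, and 0.569 without those 2 libraries) and Ccdc42 (0.733 and 0.622) among its best 3.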

How the data were processed

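Lung RNA-Seq libraries of 23 offspring were assigned to 4 groups by their labels. The labels number replicates without naming animals or litters, so p-values measure only the spread between these libraries. For read trimming the authors used Trimmomatic, for alignment to mm10 Bowtie2 with SAMtools, and for quantification and scaling to the library total SeqMonk. The deposited values are RPM, although the table is named after RPKM: dividing them by what a single read is worth in the library gave whole reads for 100% of values at any gene length, and those reads were recovered. Bowtie2 does not split reads over introns, so junction reads are under-represented.

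Tests used limma 3.58.1 (R 4.3.3; trend in the variance) on the 16795 genes that reached 0.5 RPM in 4 or more libraries, as log2(RPM + 0.5), where a fold change of a low gene is understated, with p-values adjusted over all of them. The tests were checked on simulated data. The 10 genes, the lists and the alternatives were chosen with earlier results of these data known. Other genes were named by a rule, the largest rise and fall of each list in Sham-OVA against Sham and the 3 genes most like Vegfa, Kdr, Angpt1 and Angpt2. Fold values from means are of RPM. Ratios were compared with exact permutation tests (scipy 1.17.1). Transcript lengths came from GENCODE for 16503 of the genes tested. Alternatives were edgeR 4.0.16 and DESeq2 1.42.0 on the recovered reads, other pseudocounts, filters and scalings, removal of the length and GC trend, thinning to 3218601 reads, array weights, a replicate block, the threshold of the study and leaving out libraries. DESeq2 at that threshold was added after seeing the data. Figures were drawn with matplotlib 3.10.9. Same-numbered replicates correlated at -0.248 to 0.617 over the 4 pairs of groups, so the numbers were not taken to pair samples. These numbers are those of the sample titles. In the OVA groups most of them differ from the library names, Sham-OVA replicate 3 being the library named Sham-OVA_4. Pairing by library name was therefore not examined where OVA libraries were compared, either here or in the replicate block. DNA methylation was not analysed here, and 2 genes that the naming rule picked are not reported here.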

Additional observations from a re-analysis of the deposited data

Results flagged for a closer look

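Of 44 groups of 4 to 7 libraries examined for a single library far from its nearest neighbour, 14 held one by Dixon's criterion at 95%, which chance meets in about 1 in 20 groups. PM replicate 5 accounted for 7 of them. It was lowest in PM for Kdr (114 RPM), Flt1 (143 RPM), Flt4 (43.3 RPM), Tek (121 RPM), Tie1 (149 RPM) and Nrp1 (125 RPM) and highest for Angpt1 (220.0 RPM), and it had the lowest mean log2 level of the endothelial markers (8.23, against 8.94 to 9.15 in the other PM libraries). Sham-OVA replicate 3, the library with the fewest reads, accounted for 5: it was lowest in its group for Vegfc (0.621 RPM), Angpt1 (4.66 RPM), Tie1 (119 RPM) and Nrp1 (24.2 RPM), and its ratio of Angpt2 to Angpt1 was the highest (4.61). Vegfa was highest in Sham replicate 7 (1874 RPM) and Nrp1 lowest in Sham replicate 3 (84.5 RPM).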

How the results depend on the processing

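At an adjusted p under 0.05, Vegfa, Vegfc, Angpt1, Tek and Nrp1 were called lower under all 26 alternatives in Sham-OVA against Sham and all 25 in PM-OVA against PM. The threshold of the study is not counted among these alternatives. Kdr was called under 26 and 20, Flt1 under 25 and 23, Tie1 under 22 and 20, Flt4 under 10 and 0 and Angpt2 under 1 and 0. The number of signalling genes called by limma was 1 and 0 at the threshold of the study (adjusted p under 0.000001 and an absolute log2 change above 1), where 758 of all genes instead of 11431 and 48 instead of 10968 were called, since that threshold is stricter. DESeq2 at that threshold, chosen after seeing the data, called 5 and 3 signalling genes and 4814 and 2817 of all genes, of which 2512 and 1050 were lower. At an adjusted p under 0.05, the number called in PM-OVA against PM was 5 with median-of-ratios scaling and 5 with the length and GC trend removed. It was 7 there in DESeq2 and in edgeR. In Sham-OVA against Sham it was 7 with median-of-ratios scaling, in DESeq2 and in edgeR. With the length and GC trend removed it was also 7, of which 6 were lower and 1 higher. After thinning all libraries to 3218601 reads, 8 signalling genes were called in each of the 2 OVA comparisons, all lower. Of all genes, 7267 were then called lower in Sham and 6763 in PM offspring. Leaving out 1 library gave 8 to 9, 7 to 8 and, in the maternal comparisons and the interaction, 0 to 0. Over all genes those fits called 10914 to 12146 in Sham-OVA against Sham and 9592 to 12083 in PM-OVA against PM. Flt4 in Sham-OVA against Sham turned to 0.24 with the length and GC trend removed, 0.00476 in DESeq2 and 0.071 in edgeR, and its call was lost in 8 of 12 fits without 1 library. Array weights called 2 signalling genes and 4616 genes in the interaction and turned Angpt1 to -0.94, and no filter called 1 gene. The causes were not tested. The ratio of Angpt2 to Angpt1 ranged without 1 library from 1.90 to 2.75 in Sham and 1.55 to 2.43 in PM offspring, from 0.02 to 0.27 in PM against Sham and from -0.84 to 0.22 in PM-OVA against Sham-OVA, and it was -0.10 in PM against Sham without Sham replicates 1 and 6 and PM replicate 1. Of values not called in the maternal comparisons, 43 of 280, 26 of 220 and, in the interaction, 34 of 360 changed sign. Other scalings moved the median of all genes to between -0.17 and -0.02 in Sham and between -0.13 and -0.01 in PM offspring. With a replicate block by title number, 8 signalling genes were called in Sham and 8 in PM offspring and 0 in the maternal comparisons and the interaction, and only Flt4 (-0.35, limma adjusted p = 0.137) lost its call. Of all genes, 7127 were called lower in Sham and 5701 in PM offspring with that block. Vegfc and Angpt1 in Sham-OVA replicate 3 rest on 2 and 15 reads, which limits their precision.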
